A study of Arabidopsis thaliana with 6 samples.

Results

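The genes described here are 36 protein-coding genes of the plastid genome of Arabidopsis thaliana, grouped as genes of plastid gene expression and housekeeping. They were chosen by identifier, as the plastid genes for the subunits of the plastid RNA polymerase (rpo), the ribosomal proteins (rps and rpl), the maturase MatK, the acetyl-CoA carboxylase subunit AccD, the protease subunit ClpP, the large proteins Ycf1 and Ycf2, and the proteins CcsA and CemA. The rule goes by identifier and uses no measured value, but the set was chosen with earlier results of these data known. All 36 were listed in the count files, among 133 plastid identifiers and 36917 identifiers in all. RNA-seq libraries of 3-week-old plants were compared between fbn6-1 (replicates 1, 2 and 3), a mutant with the line name GK_159E10, and wild type (replicates 2, 3 and 4). Both genotypes were of the Col-0 ecotype and grew on fertilised potting soil in a long-day greenhouse. FBN6 encodes FIBRILLIN6, a plastid lipid-associated protein of the fibrillin family. The labels name 1 mutant line and do not say whether a replicate was 1 plant or a pool.

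Chloroplasts transcribe their own genome with a pair of RNA polymerase systems. The bacterial-type polymerase is assembled from the plastid-encoded rpo subunits with nuclear-encoded sigma factors and accessory proteins, and serves mainly the photosynthesis genes. A nuclear-encoded phage-type polymerase transcribes many housekeeping genes, among them genes for the transcription and translation apparatus itself. The transcripts are translated on bacterial-type ribosomes, whose proteins come partly from the plastid and partly from the nuclear genome.

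Protein names from notes of the RefSeq annotation of TAIR10.1 are used for 4 of the identifiers. These are ATCG00660 (ribosomal protein L20) and ATCG01310 (ribosomal protein L2) of the large ribosomal subunit, ATCG00670 (the plastid-encoded subunit of the Clp protease) and ATCG00530 (the envelope protein CemA). All other genes of the set are given by identifier or in counts.

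The mutant lacked nearly all of the transcript of the targeted gene. For FBN6 (AT5G19940, chromosome 5), 7, 3 and 3 counts were found in the fbn6-1 libraries and 1845, 1557 and 2201 in the wild-type libraries, a log2 fold change of -8.82 (SE of 0.17, adjusted p = 4.23e-13) in edgeR's quasi-likelihood test. Library totals lay between 8668956 and 12287197 counts, of which 5329699 to 7292794 fell on plastid identifiers. Wild-type replicate 3 stood apart. The gene ATCG00020 held 51.8% of its plastid counts, against 42.5% to 47.2% in the other 5 libraries, and its mitochondrial share was the lowest (0.241%, against 0.309% to 0.366%). Counts of wild-type replicate 3 differed from those of wild-type replicates 2 and 4 by a chi-square of 13.9 and 13.1 per degree of freedom, against 4.58 to 5.62 in the other 4 replicate pairs. The 4 green leaf markers summed to between 15200 and 16400 CPM in fbn6-1 and between 18400 and 19000 CPM in wild type. The 7 root and 6 flower markers had at most 7 counts each, and 3 of the root and 1 of the flower markers had 0 counts in all libraries.

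Plastid transcripts as a whole took a like part of the libraries of both genotypes, and the 36 genes took a somewhat larger part of them in the mutant that did not pass a test. Plastid counts made up 59.4%, 59.9% and 62.1% of the fbn6-1 libraries and 62.2%, 60.4% and 59.5% of the wild-type libraries. The means were 60.5% ± 1.46 in fbn6-1 and 60.7% ± 1.37 in wild type (SD, n = 3 each), a difference of -0.27 percentage points (two-sided exact permutation test, p = 0.7). The 36 genes held 6.03%, 4.90% and 5.52% of the plastid counts in fbn6-1 and 4.92%, 3.46% and 4.41% in wild type. Mutant replicate 2 lay just below wild-type replicate 2, so the groups overlapped. The means were 5.48% ± 0.565 in fbn6-1 and 4.26% ± 0.743 in wild type, a difference of 1.22 points (exact permutation p = 0.2, where 0.1 is the smallest p that 3 against 3 libraries can give). Of the whole library the genes held 3.31% ± 0.336 in fbn6-1 and 2.59% ± 0.487 in wild type (exact permutation p = 0.2). A single gene, ATCG00040, made up 20.2% to 22.1% of the counts of the set in fbn6-1 and 20.1% to 22.0% in wild type.

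Because plastid counts dominate the libraries, each gene was measured in 2 ways. In plastid scaling, counts were divided by the sum of all plastid identifiers in the library and are given as CPM of that sum (plastid CPM). In library scaling, counts were divided by the library size with TMM factors and are given as CPM. Differences were tested with edgeR's quasi-likelihood test on the whole table in both cases, and a gene was called at a Benjamini-Hochberg adjusted p under 0.05 over 16584 tested genes. Of the 36 genes 31 had enough counts to be tested, and 5 did not. Passing this filter needs counts in 1 genotype only, so the counts below describe the 31 tested genes and not the set as a whole.

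Scaled to plastid counts, 10 of the 31 tested genes rose in fbn6-1, 0 fell and 21 were not called. Over all tested genes 2.74% were called higher and 1.06% lower with this scaling, and of the 69 other tested plastid identifiers 4.35% were called higher. The log2 fold changes of the 31 genes had a median of 0.47 and lay above 0 for 30 of them. They lay above 0 for 51 of the 69 other plastid identifiers and for 11287 of all 16584 tested genes. The 31 include 3 genes of few counts, given below, and the median itself is the value of 1 of these, ATCG00830. The median was 0.14 both over the other plastid identifiers and over all tested genes, so this scaling moves the centre of the whole table upward by 0.14. Relative to that centre the median of the 31 genes was 0.34. The number of called genes depended on the fit. It was 0 with TMM factors within the plastid identifiers, 0 when the plastid identifiers were fitted alone and 20 with no low-count filter. Over all tested genes these fits called 354 of 16584, 0 of 100 and 1039 of 28860, both directions together. In 18 of the 31 genes every fbn6-1 library lay above every wild-type library, against 18.6% of all tested genes and 26.1% of the other plastid identifiers. ATCG00900, a gene of few counts, is among the 18. Wild-type replicate 3 was the lowest of the 6 libraries in 29 of the 31 genes, and also in 58 of the 69 other plastid identifiers, and mutant replicate 1 was the highest in 29 of the 31. The median deviation of the 31 genes from their wild-type mean was 0.73, 0.26 and 0.53 on the log2 scale in the fbn6-1 libraries. In the wild-type libraries it was 0.27, -0.34 and 0.09, so mutant replicate 2 and wild-type replicate 2 were close to each other. For the 69 other plastid identifiers it was 0.29, 0.02 and 0.14 in fbn6-1 and 0.12, -0.18 and 0.04 in wild type. There too mutant replicate 1 was highest and wild-type replicate 3 lowest.

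**Figure D1:**
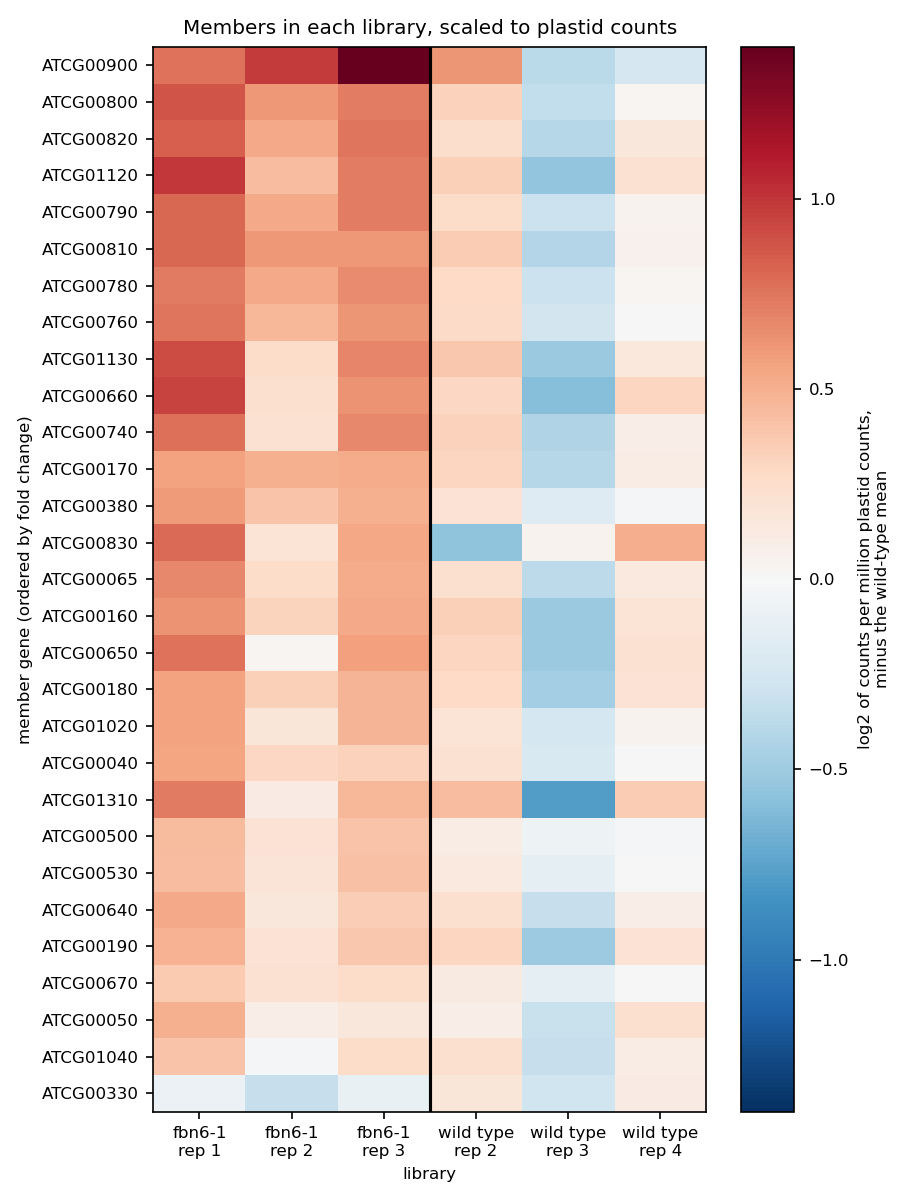
Levels of 29 of the 31 tested genes (rows, ordered by fold change) in the 3 fbn6-1 and 3 wild-type libraries (columns), as log2 plastid CPM minus the wild-type mean of the gene. The fbn6-1 columns are mostly above 0, wild-type replicate 3 is mostly below 0, and the bottom row, ATCG00330, is below 0 in every fbn6-1 library.

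Among the genes that rose, 5 carry the consecutive identifiers ATCG00780 to ATCG00820. This stretch was picked out after the values were seen and is given as a description. Together the 5 genes held 0.74%, 0.625% and 0.683% of the plastid counts in fbn6-1 and 0.518%, 0.336% and 0.437% in wild type, and the groups did not overlap.

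The gene with the largest called increase was ATCG00800. It had 2049.7, 1701 and 1833 in the fbn6-1 libraries, against 1389, 880.0 and 1133 in the wild-type libraries (plastid CPM), a log2 fold change of 0.71 (SE of 0.15, adjusted p = 0.00962). ATCG00790 had 2018, 1663 and 1891 in the fbn6-1 libraries, against 1383, 935 and 1191 in the wild-type libraries, with a log2 fold change of 0.67 (SE of 0.14, adjusted p = 0.0114). In both genes wild-type replicate 3 was lowest, and the highest wild-type library, replicate 2, stayed below the lowest fbn6-1 library, replicate 2. ATCG00780 stood at 1970.4, 1719 and 1888 in the fbn6-1 libraries, against 1441, 964 and 1217 in the wild-type libraries, and its log2 fold change was 0.62 (SE of 0.14, adjusted p = 0.0161). ATCG00820 stood at 445, 361 and 420.5 in the fbn6-1 libraries, against 296, 189 and 279 in the wild-type libraries, and its log2 fold change was 0.68 (SE of 0.15, adjusted p = 0.0176). The order of the libraries was the same in these as in ATCG00800.

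The other gene of the stretch, ATCG00810, and a gene near it, ATCG00760, rose by similar amounts. ATCG00760 had 584, 480.5 and 533 in the fbn6-1 libraries, against 419, 289.5 and 344 in the wild-type libraries (log2 fold change 0.60, adjusted p = 0.0212). ATCG00810 had 919.7, 802 and 800.5 in the fbn6-1 libraries, against 671, 395 and 546 in the wild-type libraries (log2 fold change 0.65, adjusted p = 0.0255). The groups did not overlap in either. Across the 5 genes of the stretch the log2 fold changes lay between 0.62 and 0.71. Without wild-type replicate 3 they lay between 0.47 and 0.56. All 5 were called with any 1 wild-type replicate left out, 4 without mutant replicate 2, and 0 without mutant replicate 1 or without mutant replicate 3. The calls over all tested genes in these fits are given below.

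**Figure D2:**
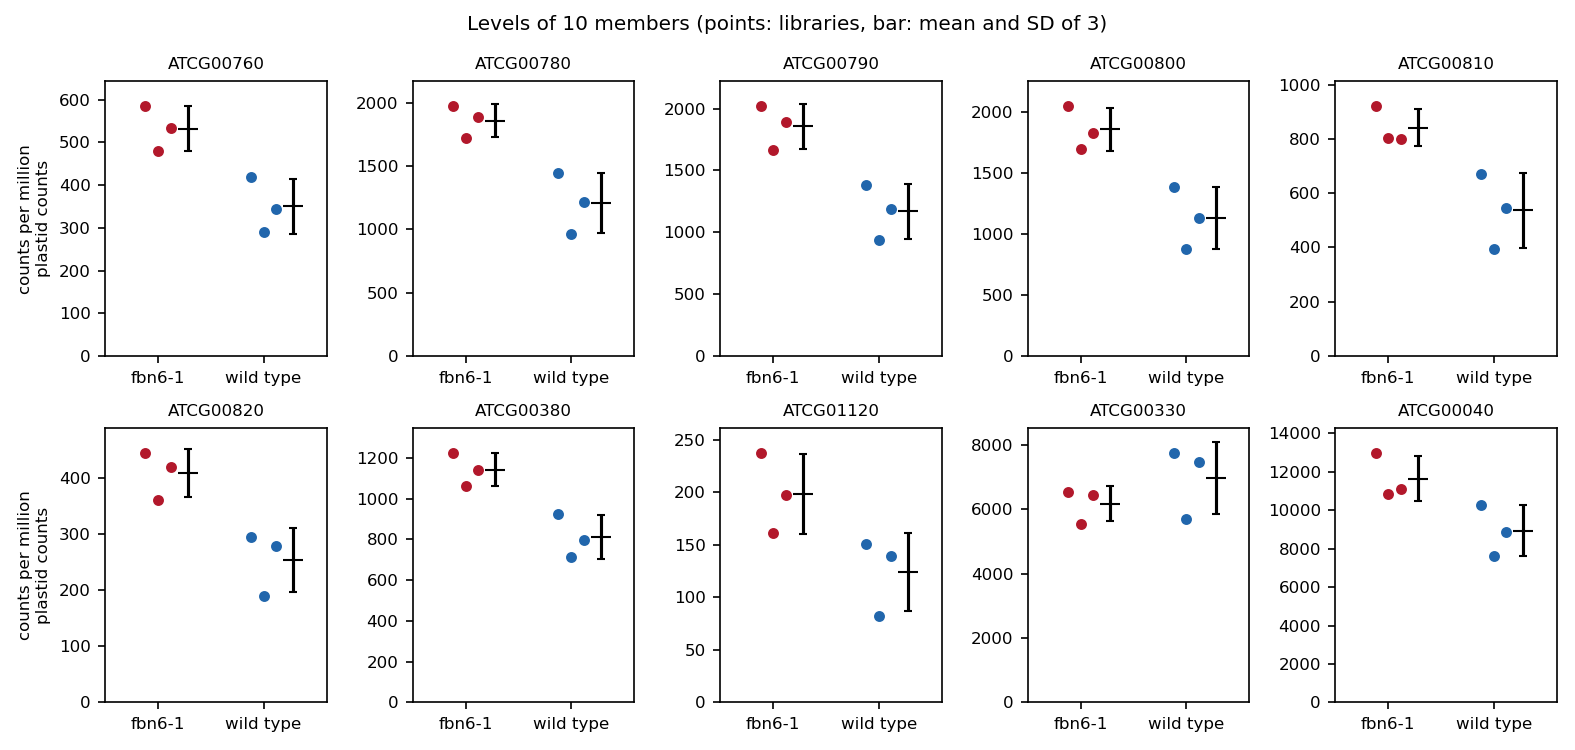
Plastid CPM of 10 genes of the set in the fbn6-1 libraries (red points) and the wild-type libraries (blue points), with the mean and SD of 3 libraries in black; each axis starts at 0. The groups are apart in the first 8 panels, overlap in ATCG00330, and are apart in ATCG00040, which was not called.

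ATCG00380 and ATCG01120 were also called in plastid scaling. ATCG00380 had 1225, 1063 and 1139 in the fbn6-1 libraries, against 927, 715 and 795 in the wild-type libraries, a log2 fold change of 0.49 (SE of 0.13, adjusted p = 0.0344). ATCG01120 had 237, 161 and 197 in the fbn6-1 libraries, against 151, 82.0 and 139 in the wild-type libraries, a log2 fold change of 0.68 (SE of 0.19, adjusted p = 0.0498). The groups did not overlap in either gene, but with 1 library left out ATCG00380 was called in 1 of 6 fits and ATCG01120 in 2.

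The Clp protease subunit, CemA and ribosomal protein L20 were not called. The Clp protease degrades proteins in the chloroplast stroma, and its core holds 1 plastid-encoded subunit beside nuclear-encoded ones. The gene for that subunit, ATCG00670, had 2939.9, 2632 and 2708 in the fbn6-1 libraries, against 2486, 2066 and 2284 in the wild-type libraries, a log2 fold change of 0.28 (SE of 0.12, adjusted p = 0.206). The gene for CemA, ATCG00530, had 3986, 3356 and 3913 in the fbn6-1 libraries, against 3241, 2692 and 2954 in the wild-type libraries, a log2 fold change of 0.34 (SE of 0.12, adjusted p = 0.124). In both genes every fbn6-1 library lay above every wild-type library, by a small margin. The gene for L20, ATCG00660, had 847, 515 and 680.1 in the fbn6-1 libraries, against 539, 292 and 540.1 in the wild-type libraries, a log2 fold change of 0.57 (SE of 0.20, adjusted p = 0.122). Mutant replicate 2 lay below wild-type replicates 2 and 4 there, so the groups overlapped. Per kilobase of coding length, the gene for L20 stood at 1109.6 ± 240.1 CPM per kilobase in fbn6-1 and 823 ± 264 in wild type. The gene for the Clp subunit stood at 2703 ± 112 CPM per kilobase in fbn6-1 and 2463 ± 333 in wild type, and the gene for CemA stood at 3151 ± 325 CPM per kilobase in fbn6-1 and 2743 ± 378 in wild type. On this scale the order of the means in both genotypes was CemA, Clp subunit, L20, and in wild type the means of CemA and the Clp subunit differed by less than the SD of either.

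The most counted genes of the set, ATCG00040 and ATCG00330, were not called and lay on either side of 0. ATCG00040 had 12975, 10822 and 11117 in the fbn6-1 libraries, against 10279, 7618 and 8880.1 in the wild-type libraries (plastid CPM), with a log2 fold change of 0.38 (SE of 0.13, adjusted p = 0.098). The fbn6-1 libraries lay above the wild-type libraries, but the difference was not called. ATCG00330 was the single tested gene of the set below 0, with 6515, 5534 and 6435 in the fbn6-1 libraries, against 7743, 5692 and 7472 in the wild-type libraries and a log2 fold change of -0.18 (SE of 0.13, adjusted p = 0.493). All fbn6-1 libraries lay below wild-type replicates 2 and 4, and wild-type replicate 3 lay among them. In library scaling its log2 fold change was -0.32 (SE of 0.13, adjusted p = 0.213), and it was called lower without wild-type replicate 3. ATCG00330 made up 10.8% to 11.7% of the counts of the set in fbn6-1 and 15.7% to 16.9% in wild type.

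The other genes not called in plastid scaling, leaving out those with few counts, were ATCG00740, ATCG00190, ATCG00180, ATCG00170, ATCG00050, ATCG00160, ATCG00650, ATCG00065, ATCG00640, ATCG01020, ATCG00500, ATCG01130 and ATCG01040. Their log2 fold changes lay between 0.21 (ATCG01040, adjusted p = 0.491) and 0.60 (ATCG01130, adjusted p = 0.0826). ATCG00170 came nearest to the threshold, with 1971, 1871 and 1912 in the fbn6-1 libraries, against 1639, 1005 and 1428 in the wild-type libraries and a log2 fold change of 0.50 (SE of 0.15, adjusted p = 0.066). ATCG00740 had 3143, 2146 and 2937 in the fbn6-1 libraries, against 2314, 1383 and 1971 in the wild-type libraries and a log2 fold change of 0.54 (SE of 0.17, adjusted p = 0.0824). The groups were apart in ATCG00170 and overlapped in ATCG00740.

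Of the 36 genes 8 had at most 55 counts in any library, where each of the other 28 had at least 437 counts in every library. These 8 identifiers are ATCG00830, ATCG01310, ATCG00840, ATCG01300, ATCG00900, ATCG01240, ATCG00860 and ATCG01280, and ATCG01310 is the one annotated as ribosomal protein L2. In the TAIR10.1 plastid sequence 4 genes of these families, rpl2, rpl23, rps7 and ycf2, are present in 2 identical copies each, which makes 8 gene copies. Reads from identical copies match 2 places, and how the counting treated them is not given in the sources used here, so the low counts are no measure of these transcripts. Of the 8, 5 were under the filter and had at most 11 counts. The tested ones had wide errors. ATCG00900 had 15, 13 and 19 counts in the fbn6-1 libraries and 12, 5 and 7 in the wild-type libraries (log2 fold change 1.01 (SE of 0.43, adjusted p = 0.204), the largest value of the set). ATCG00830 had 55, 27 and 34 counts in the fbn6-1 libraries and 19, 24 and 42 in the wild-type libraries (log2 fold change 0.47, SE 0.29). ATCG01310 had 39, 19 and 24 counts in the fbn6-1 libraries and 28, 10 and 28 in the wild-type libraries (log2 fold change 0.35, SE 0.33). None of these differences was called.

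In library scaling the same genes leaned the same way, and 1 of 31 was called. Their log2 fold changes were lower, but relative to the centre of all tested genes the median of the 31 was 0.34 in both scalings. Over all tested genes 1.48% were called higher and 2.34% lower, and of the other plastid identifiers 1.45% were called higher. Of the genes given one by one 0 were called, and ATCG00800 came nearest to the threshold (1122, 986 and 1121 in the fbn6-1 libraries, against 939.8, 562 and 678 in the wild-type libraries, CPM), with a log2 fold change of 0.57 (SE of 0.15, adjusted p = 0.0526). The 31 genes had a median log2 fold change of 0.34, against -0.01 for the other plastid identifiers and 0.00 for all tested genes. Of the 31 genes 30 lay above 0, against 8210 of all 16584 tested genes. ATCG00830, a gene of few counts, again held the median. Groups did not overlap in 6 of the 31, 5 of them in the stretch from ATCG00780 to ATCG00820, with the mutant higher; over all tested genes this was so for 10.9%, and over the other plastid identifiers for 5.8%. An unadjusted p under 0.05 was reached by 14 genes above 0 and 1 below 0, against 1333 above 0 and 1626 below 0 of all 16584 tested genes. Of the set, DESeq2 called 5 higher and limma-voom called 4. From edgeR came 9 higher calls with library sizes without TMM factors and 14 with no low-count filter. Over all 16584 tested genes, calls in both directions numbered 540 with DESeq2, 629 with limma-voom and 703 without TMM factors. With no low-count filter they numbered 1232 of 28860. Over all genes the calls split into 245 higher and 388 lower in library scaling and into 455 higher and 176 lower in plastid scaling.

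**Figure D3:**
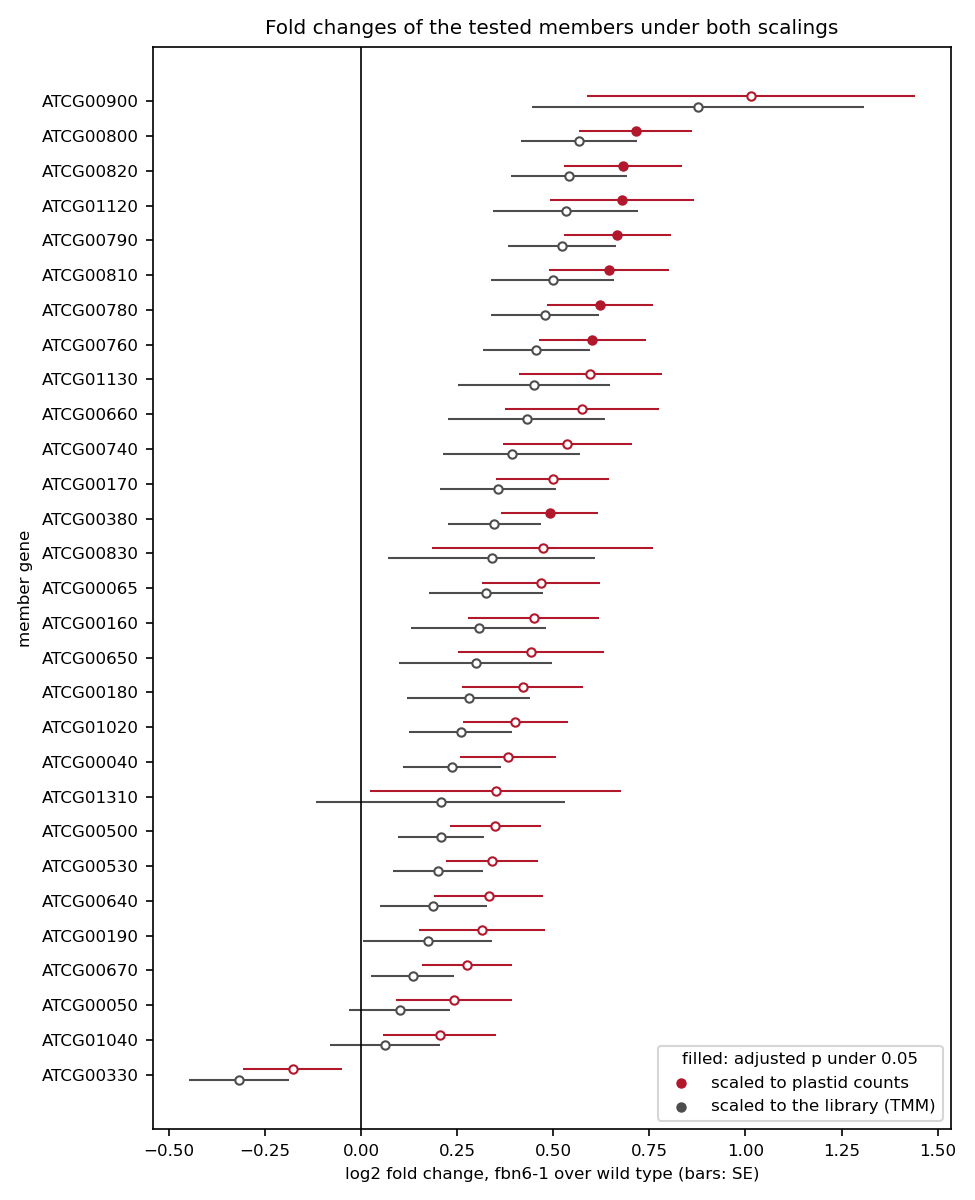
Log2 fold changes of 29 of the 31 tested genes, fbn6-1 over wild type, in plastid scaling (red) and library scaling (grey), with SE bars; filled points were called. Plastid scaling places each point about 0.14 to the right of library scaling, with 8 called genes against 0 of those shown.

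Left-out libraries moved these values. With library scaling the number of higher calls was 10 without wild-type replicate 2 and 2 without wild-type replicate 3. It was 0 without wild-type replicate 4 or any 1 of the mutant replicates. Over all tested genes, calls were 348 of 16790, 1238 of 17131 and 335 of 16755 without wild-type replicates 2, 3 and 4. Without mutant replicates 1, 2 and 3 they were 304 of 16698, 272 of 17052 and 291 of 17074, both directions together. The median of the 31 genes was 0.18 without wild-type replicate 3, when 26 lay above 0, and 0.51 without wild-type replicate 2. With plastid scaling 10, 8 and 7 genes were called higher without wild-type replicates 2, 3 and 4. Without mutant replicates 1, 2 and 3 the numbers were 1, 10 and 1. In each of these 6 fits 30 of 31 genes lay above 0. Their calls over all tested genes were 286 of 16790, 975 of 17131 and 561 of 16755 without wild-type replicates 2, 3 and 4. Without mutant replicates 1, 2 and 3 they were 236 of 16698, 313 of 17052 and 277 of 17074, both directions together.

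The other plastid identifiers did not lean to one side in library scaling: 34 of 69 lay above 0 and 35 below. Of them ATCG00390 was called higher in both scalings (log2 fold change 0.68 (SE of 0.13, adjusted p = 0.00682) in plastid scaling), and ATCG00320 (0.60) and ATCG00360 (0.52) were called higher in plastid scaling. ATCG00020, the most counted plastid gene, stood at 45.0% ± 2.34 of plastid counts in fbn6-1 and 46.5% ± 4.62 in wild type (exact permutation p = 0.7).

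**Figure D4:**
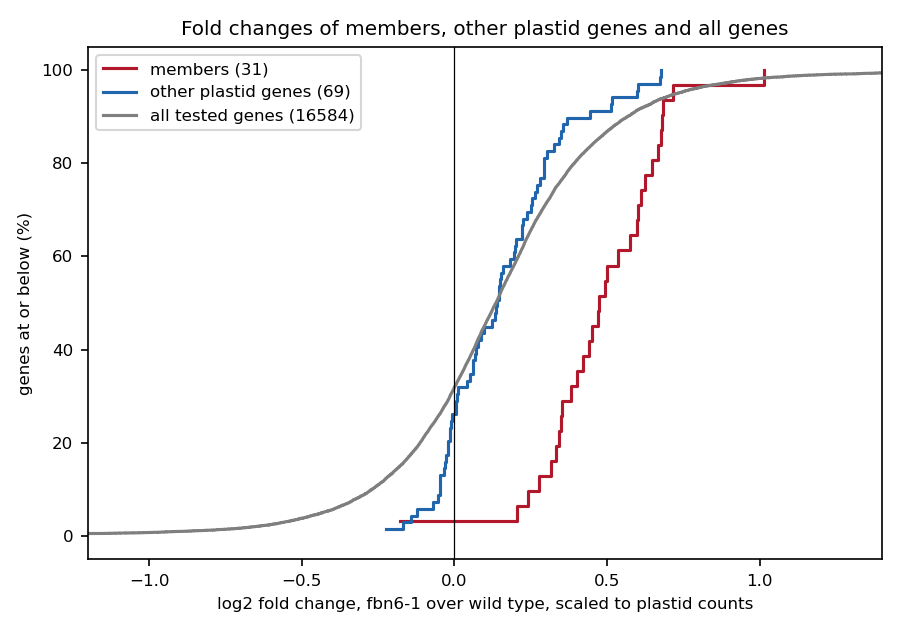
Cumulative share of genes at or below a given log2 fold change, fbn6-1 over wild type in plastid scaling, for the 31 tested genes of the set (red), the 69 other tested plastid identifiers (blue) and all 16584 tested genes (grey). The medians are 0.47 for the set and 0.14 for each of the other curves.

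Among nuclear genes of the plastid transcription machinery, 6 of 21 rose in fbn6-1, 1 fell and 14 were not called in library scaling, where 3.82% of all tested genes were called. The 21 genes had a median log2 fold change of 0.37. SCA3 (AT2G24120) encodes a phage-type RNA polymerase of the plastid. It rose to 35.3, 36.8 and 37.4 CPM in fbn6-1, against 15.6, 22.8 and 18.6 CPM in wild type, with a log2 fold change of 0.94 (SE of 0.13, adjusted p = 0.00112). The groups were far apart, and the call held in all 6 fits with 1 library left out. AT5G15700, a further phage-type polymerase gene of the list, was not called (log2 fold change 0.37, SE of 0.25, adjusted p = 0.48). SIGE (AT5G24120), also known as SIG5, a sigma factor of the plastid-encoded polymerase, fell to 39.1, 42.6 and 44.0 CPM in fbn6-1, against 67.0, 64.8 and 65.0 CPM in wild type (-0.65 (SE of 0.10, adjusted p = 0.00211)). This call also held in all 6 such fits.

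The other called genes of this list encode proteins found with the plastid-encoded polymerase. MURE (AT1G63680), a relative of a bacterial cell wall enzyme, had 25.1, 25.1 and 24.9 in the fbn6-1 libraries, against 16.1, 16.5 and 17.6 in the wild-type libraries (CPM), with a log2 fold change of 0.58 (SE of 0.11, adjusted p = 0.0102). PDE312 (AT3G48500), also known as PTAC10, had 16.7, 16.0 and 18.1 in the fbn6-1 libraries, against 10.2, 7.07 and 11.5 in the wild-type libraries (CPM), with a log2 fold change of 0.80 (SE of 0.17, adjusted p = 0.0149). The groups were apart in both, and each was called in 3 of the 6 fits with 1 library left out. PTAC14 (0.63), FLN2 (0.66) and FSD3 (0.77) complete the genes that rose; these 3 were named after their values were seen. The other sigma factor genes were not called: SIGA (-0.50), SIG2 (0.24), SIGC (-0.23), SIG4 (0.19) and SIGF (0.19). Higher calls in the list numbered 1 without mutant replicate 1, 1 without mutant replicate 2 and 2 without mutant replicate 3. Lower calls numbered 2 without wild-type replicate 3. The calls over all tested genes in these fits are given above.

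**Figure D5:**
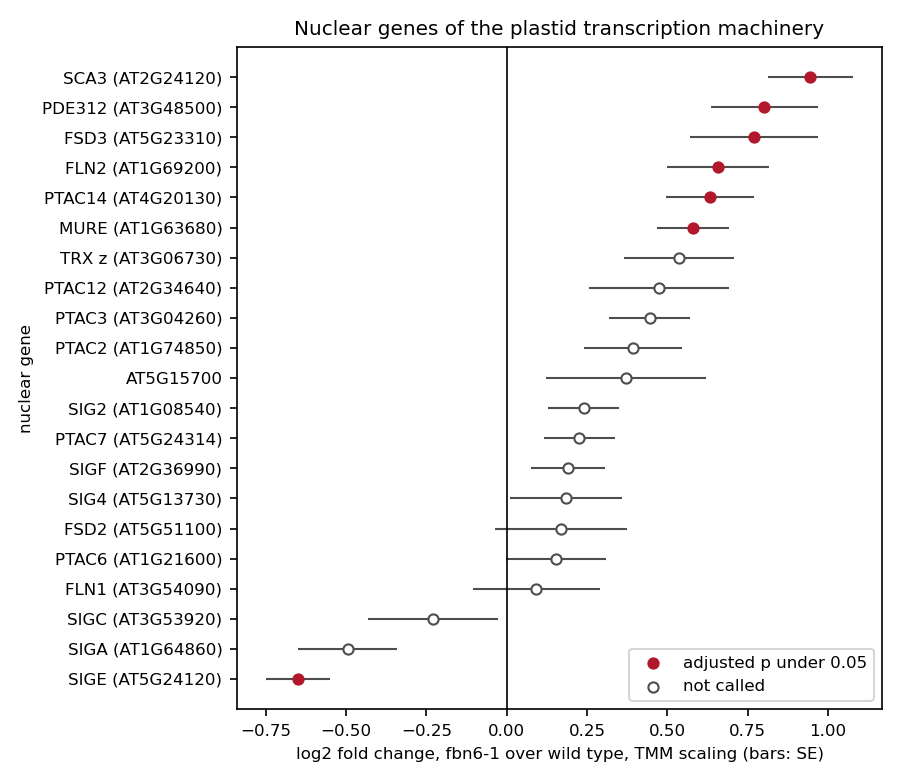
Log2 fold changes of 21 nuclear genes of the plastid transcription machinery, fbn6-1 over wild type in library scaling, with SE bars; filled points were called. SCA3 is highest at 0.94 and SIGE lowest at -0.65.

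Nuclear genes for plastid ribosomal proteins were not called in library scaling, where 1.48% of all tested genes were called higher and 2.34% lower. A count of 0 lies near these shares. Of 33 tested, 0 passed the threshold in edgeR and 0 in DESeq2, and 5 had an unadjusted p under 0.05, all above 0. Over all 16584 tested genes 1333 reached such a p above 0 and 1626 below 0. The log2 fold changes of the ribosomal protein genes lay above 0 in 32 of 33, with a median of 0.14 and a range of -0.10 to 0.35. Of all tested genes 8210 lay above 0. In plastid scaling, which moves the centre of the table upward, 1 of the 33 was called higher (AT4G17560, log2 fold change 0.49, adjusted p = 0.0345, named after its values were seen) and all 33 lay above 0, with a median of 0.28. The list of 26 nuclear partners of the housekeeping proteins holds the other subunits of acetyl-CoA carboxylase, the Clp core, cytochrome assembly, and envelope complexes. Of these 26, 0 were called in edgeR and 0 in DESeq2 in library scaling, and 0 in edgeR in plastid scaling. These counts also lie near the shares over all tested genes, which in plastid scaling were 2.74% higher and 1.06% lower. In library scaling an unadjusted p under 0.05 was reached by 2 above 0 and 1 below 0, and the median was 0.03. Whether the nuclear and the plastid ribosomal protein genes differ in their change was not tested.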

How the data were processed

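Each library has 1 file of unnormalised gene counts, as the authors deposited it. The submitters' processing notes name the TAIR10 build, featureCounts, TopHat2 2.1.1, Trimmomatic and FastQC. Not given in the sources used here are settings, strand use and the treatment of reads with several matches. Counts of a gene and of transcripts antisense to it therefore cannot be told apart. RNA selection is not stated either, which bears on plastid transcripts, since few carry poly(A) tails. Total RNA was prepared with Trizol and a Tru-Seq kit, per the labels.

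Tests used edgeR 4.0.16 in R 4.3.3 on the whole table (filterByExpr, minimum count 10 and minimum total 15, 16584 genes, two-sided), once with TMM factors and once with the sum of the 133 ATCG rows as library size. SE values were derived from log2 fold changes and F. Alternatives included DESeq2 1.42.0 and limma 3.58.1. What the p-values measure is the spread of these libraries, which may be technical. On data simulated for library scaling, with 200 of 16311 genes changed, 85.7% of those changed by a log2 fold of 1 were recovered and 9 of 191 calls were false. For plastid scaling, with 16279 genes, 70.4% were recovered and 1 of 169 calls was false. The simulation drew each gene independently with a dispersion common to all genes, and held no library standing apart as wild-type replicate 3 did. These rates therefore describe the simulated data and not the deposited counts. Recovery of changes smaller than a log2 fold of 1 was not tested. The members called in plastid scaling had smaller changes, with log2 fold changes between 0.49 and 0.71. The rule for the members uses identifiers alone, but members and lists were chosen with earlier results of these data known. Names come from the RefSeq annotation of TAIR10.1, and no sequence or coordinate is given. Of the members, those called with either scaling, the 3 with the highest and the 3 with the lowest mean CPM, and the 3 with the largest change in each direction and scaling were named with values in every library. Of the nuclear lists, up to 3 called genes per direction were named, by smallest adjusted p. Some called genes are not reported here one by one and stand only in counts. Values of further genes in the text were added after they were seen.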

Additional observations from a re-analysis of the deposited data

How the results depend on the processing

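In library scaling, where 1 of the 36 genes was called higher and 0 lower, higher calls numbered 0 at an adjusted p under 0.01, 2 with RLE factors, 9 with library sizes without factors, 2 with TMM factors and sizes from nuclear genes, 5 with DESeq2, 4 with limma-voom and 14 with no low-count filter. Lower calls numbered 1 with no low-count filter. Over all 16584 tested genes, calls in both directions numbered 634 with RLE factors and 621 with sizes from nuclear genes. With 1 library left out, higher calls ranged over 0 to 10 and lower calls over 0 to 1. These fits called 272 to 1238 genes over the whole table, and 236 to 975 in plastid scaling. In plastid scaling, with 10 called higher, the number was 2 at an adjusted p under 0.01, 0 with TMM factors within the plastid identifiers, 0 when these were fitted alone, 20 with no low-count filter, and 1 to 10 with 1 library left out. The cause of these shifts was not tested, apart from the stricter threshold. Among nuclear genes of plastid transcription, with 6 called higher and 1 lower, higher calls numbered 1 at an adjusted p under 0.01 and 1 to 5 with 1 library left out, and lower calls numbered 2 with no low-count filter and 1 to 2 with 1 library left out. Library sizes without factors gave 2 higher calls among nuclear genes of the plastid ribosome. Partners of the housekeeping proteins gave 1 higher call with no low-count filter and 0 to 1 lower calls with 1 library left out. The difference in plastid share, -0.27 points as reported, was 0.468 without ATCG00020 and ranged over -1.10 to 0.481 with 1 library left out. The log2 fold change of ATCG01310 in library scaling ranged over -0.056 to 0.45 with 1 library left out, and that of ATCG00020 in plastid scaling over -0.10 to 0.035, with the sign turned without wild-type replicate 3. With TMM factors within the plastid identifiers that of ATCG01040 was -0.0174. For single genes and the medians of the set, 681 recomputed values were rated as unchanged, 121 kept the direction but lost the call, and 48 gained one. For single genes, unchanged means the same direction and side of the threshold. The medians have no threshold. At an adjusted p under 0.01 a gene not called before is unchanged by construction. In library scaling 30 of the 31 tested genes lay above 0, against 26 without wild-type replicate 3, where ATCG00190 (-0.04), ATCG00050 (-0.04) and ATCG01040 (-0.08) also lay below 0.

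Replicate numbers 2 and 3 occur in both genotypes. Deviations of same-numbered libraries correlated at -0.0403 for number 2 and 0.103 for number 3 across 16584 genes. Those of differently numbered libraries lay between -0.225 and 0.147. With 2 shared numbers this cannot tell whether same-numbered libraries shared a batch. With the replicate number as a block, 0 of the 36 genes were called higher in library scaling and 0 in plastid scaling. In library scaling 2 nuclear transcription genes were called higher and 0 lower. In that fit only numbers 2 and 3 compare the genotypes, since each other number occurs in a single genotype. It called fewer genes over the whole table, 191 against 633 without the block in library scaling and 359 against 631 in plastid scaling. The 3 tested identifiers with at most 55 counts in any library had SE values between 0.29 and 0.43 in plastid scaling.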
